A study of Homo sapiens with 6 samples.

Results

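The antioxidant and NRF2 target genes described here are 45 of the 20381 genes of the count table, taken by matching the gene symbol to a list of regulators of the NRF2 pathway, its targets, and genes of the glutathione, thioredoxin, peroxidase and ferroptosis defense systems. The list was drawn up because PON1 is itself an antioxidant enzyme. All 45 genes were found in the table and all 45 passed the filter on low counts. RNA-seq of poly(A) RNA was carried out on HCCLM3, a human hepatocellular carcinoma (HCC) cell line of high metastatic capacity, to ask which transcripts differ when *PON1* is overexpressed. There were 3 PON1-OE libraries, from cells that stably carry the *PON1* coding sequence after lentiviral infection and puromycin selection, and 3 negative control (NC) libraries, from HCCLM3 cells that the series text describes as carrying the empty lentiviral vector. No label says if replicates were infected or cultured apart, so that n counts libraries and a p-value measures only the spread between these libraries. The series text gives 15% serum and lysis 24 h after transfection, whereas the treatment label names a stable overexpression and the study's methods give another serum content.

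NRF2, the transcription factor encoded by *NFE2L2*, is held at a low protein level in resting cells because KEAP1 presents it to a ubiquitin ligase for degradation. Oxidants and electrophiles modify cysteines of KEAP1, NRF2 then accumulates in the nucleus, pairs with small MAF proteins and binds antioxidant response elements in front of its target genes. The targets make glutathione and NADPH, reduce peroxides and thioredoxin, conjugate or reduce electrophiles, and store iron. In some HCC this program is switched on by mutation of either regulator, and aldo-keto reductases and NQO1 are then abundant. RNA-seq measures the transcripts only, and NRF2 activity is set largely at the protein level.

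*PON1* (ENSG00000005421) was checked first. It had 0, 2 and 3 estimated counts in the NC libraries and 155, 181 and 167 in the PON1-OE libraries, which is 0.0955 ± 0.0889 (SD, n = 3) against 10.5 ± 0.955 (SD, n = 3) normalized CPM, counts scaled to a common library size. Against a floor of 3 counts per library the overexpressing group was at least 60.0-fold higher. The fit of the counts without this floor gave an adjusted p of 2.99e-11 (edgeR quasi-likelihood test, Benjamini-Hochberg adjusted). The libraries held 15706672 to 17948383 estimated counts. Of 11 hepatocyte markers 4 reached 1 CPM (*HNF4A*, *CEBPA*, *TF* and *APOB*), while *ALB*, *TTR* and *APOA1* lay below it. The summed hepatocyte markers were 152.6 to 153.6 CPM (NC) and 143.3 to 149.0 CPM (PON1-OE), without overlap. The part of these markers in the results that follow was not tested. Of 7 liver cancer and epithelial markers 4 reached 1 CPM (*KRT8*, *KRT18*, *KRT19* and *CDH1*). *AFP* and *EPCAM* lay below it on average and *GPC3* had no count in any library. The 7 summed to 3666 to 4163 CPM in NC and 3819 to 4054 CPM in PON1-OE. Of 5 leukocyte markers *PTPRC*, *CD3E* and *LYZ* had no count in any library, *CD14* stayed under 1 CPM and *CD68*, a lysosomal gene, made up nearly all of the sum, which was 206.4 to 226.5 CPM in NC and 224.1 to 248.0 CPM in PON1-OE. The 4 endothelial markers summed to 21.87 to 24.6 CPM in NC and 25.15 to 27.77 CPM in PON1-OE, also without overlap, and 2 of them reached 1 CPM. Of single genes tested, 8.32% were higher and 7.74% lower in PON1-OE without overlap. The 6 fibroblast and stellate markers, of which 1 reached 1 CPM, summed to 3.64 to 4.98 and 4.53 to 7.07 CPM. The part of these markers in the results was not tested either.

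The sequences of promoters that hold the core of the antioxidant response element are shown because these are the letters that NRF2 is known to recognize with its MAF partners. RefSeq promoter windows of 300 bases (GRCh38.p14, 250 bases before to 50 after the annotated start) were found for 36 of the 45 genes. The core TGACNNNGC was searched on both strands, where it reads GCNNNGTCA on the opposite one. It occurred in 7 of the 36 windows (19.4%), in 21 of 111 windows of other genes of the pathway (18.9%) and in 3702 of 27305 promoters in all (13.6%). Each stretch is written 5′ to 3′ in the direction of the gene, the capitals mark the core, and 20 bases stand on either side.
GSTP1, chr11:67583726-67583774, plus strand: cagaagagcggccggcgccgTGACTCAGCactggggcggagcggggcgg
ME1, chr6:83431160-83431208, minus strand: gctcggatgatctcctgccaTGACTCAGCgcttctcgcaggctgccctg
AIFM2, chr10:70132819-70132867, minus strand: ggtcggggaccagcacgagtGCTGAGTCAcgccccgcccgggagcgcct
GCLM, chr1:93909436-93909484, minus strand: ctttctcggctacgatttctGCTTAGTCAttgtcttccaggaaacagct
GPX2, chr14:64942839-64942887, minus strand: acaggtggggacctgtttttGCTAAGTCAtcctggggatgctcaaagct
TXNRD1, chr12:104215660-104215708, plus strand: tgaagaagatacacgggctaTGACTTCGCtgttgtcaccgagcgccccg
PGD, chr1:10398843-10398891, plus strand: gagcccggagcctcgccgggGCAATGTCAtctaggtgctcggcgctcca
*ME1* and *TXNRD1* each hold a second core nearer the start. The form TGACTCAGC also contains TGACTCA, the letters of the AP-1 site. Of the 7 genes with a core 4 had a higher and 3 a lower fitted level in PON1-OE, with a median log2 fold change of 0.0079. Of the 29 without one 19 were higher and 10 lower, with a median of 0.019. A match is a description of letters in this window and not a measured binding site. A window without a match does not show that the gene lacks an element, since only these 300 bases were searched.

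None of the 45 genes passed an adjusted p of 0.05 (the quasi-likelihood test of edgeR, adjusted by Benjamini-Hochberg over 11958 genes), and neither DESeq2 nor limma-voom called one. DESeq2 gave no adjusted p for some of them, *TXNIP*, *GPX3*, *KEAP1* and *PON3* included, and so could not call these. Over all genes tested 81, or 0.677%, passed. The smallest adjusted p among the 45 was 0.171, for *GPX1*. At an unadjusted p under 0.05 there were 7 of them (15.6%), 5 higher (*GPX1*, *TALDO1*, *TXNIP*, *PGD* and *PRDX1*) and 2 lower (*GPX2* and *AKR1C3*). Of all genes tested 11.1% were under that threshold, 5.91% higher and 5.17% lower. A difference between these shares and those of the 45 genes was not tested. The groups did not overlap for 4 genes that were higher (*GPX1*, *TXNIP*, *PGD* and *TALDO1*), where 8.32% of all genes were so, and for 1 that was lower (*TFRC*), where 7.74% were. In bulk RNA a difference in the number of cells that express a gene and a difference in RNA per cell cannot be told apart.

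The fitted differences were small and their errors narrow. The log2 fold changes ran from -0.22 to 0.45 with a median of 0.019, beside -0.0025 over all genes tested, and 29 of the 45 were above 0 (64.4%, beside 49.0% of all genes). The absolute log2 fold change was under 0.15 for 42 genes, and *GPX2*, *GPX3* and *TXNIP* were the exceptions. The 95% interval of the difference lay inside a 1.5-fold change in either direction for 43 genes (95.6%, beside 86.1% of all genes tested). It lay inside a 1.2-fold change for 39 genes (86.7%, beside 55.3%). For *GPX3* and *TXNIP* the interval reached past 1.5-fold, and for *KEAP1*, *GSTP1*, *GPX2* and *PON3* past 1.2-fold. The counts behind these genes were higher than usual, with a median of 170.6 CPM beside 28.81 CPM over all genes tested. An adjusted p over the threshold does not show that a transcript was unchanged.

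**Figure D1:**
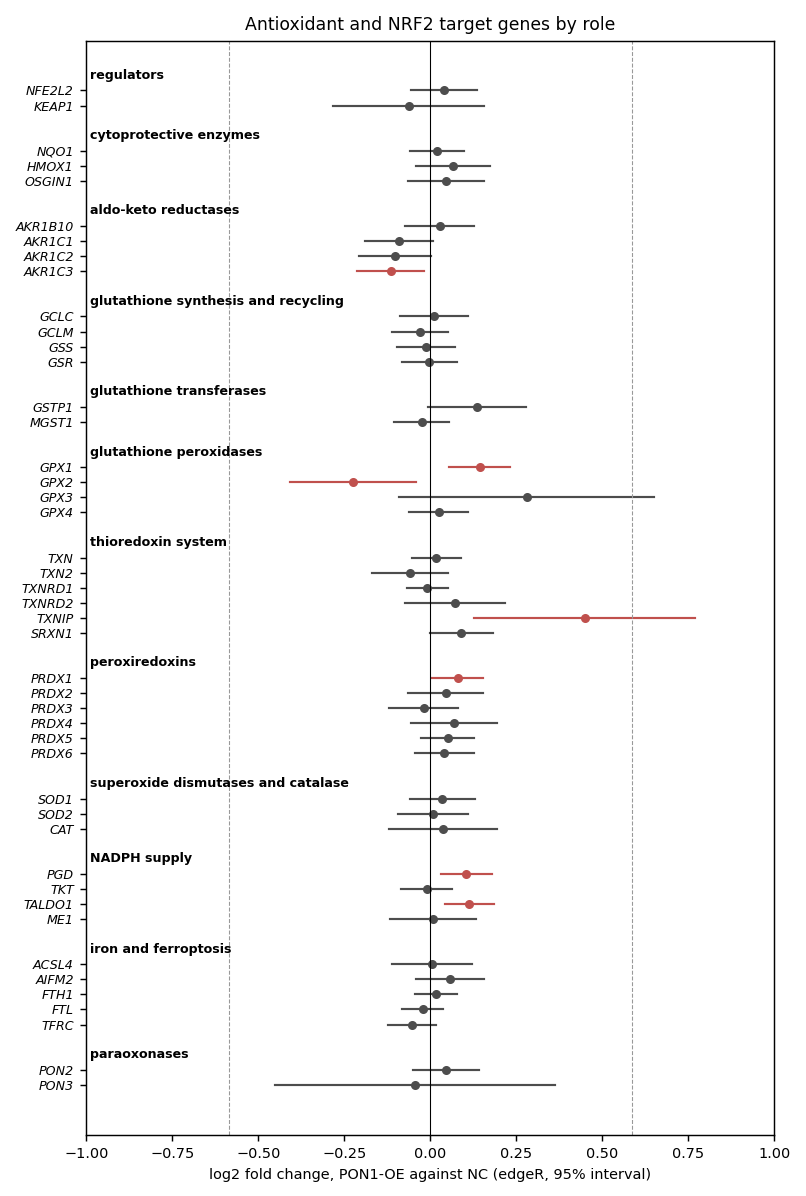
The plot of fitted changes by role shows the log2 fold change of PON1-OE against NC on the horizontal axis for each of the 45 genes, grouped by role, with points for the estimate, lines for the 95% interval and dashed lines at a 1.5-fold change. Red marks the 7 genes at an unadjusted p under 0.05, none of which passed the adjusted threshold, and 43 intervals lie between the dashed lines.

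**Figure D2:**
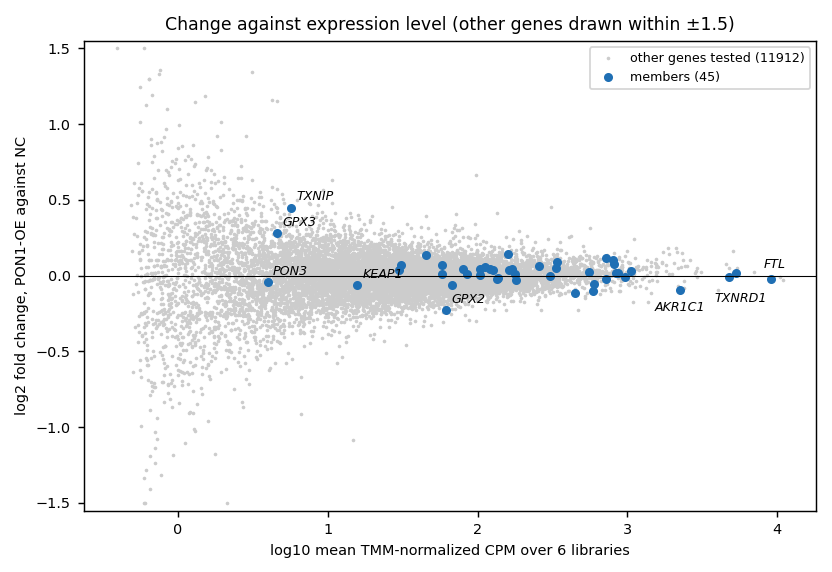
The plot of change against level gives the log10 of the mean normalized CPM over the 6 libraries on the horizontal axis and the log2 fold change on the vertical axis. Blue points are the 45 genes and grey points the other genes tested without *PON1*, with values beyond 1.5 in either direction drawn at the edge. The largest fitted changes of the 45, *TXNIP* and *GPX3*, lie among the lowest levels, where the grey points also spread the most.

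The regulators came first. *NFE2L2* (chr2:177227595-177392697, GRCh38, minus strand) gave 164.4, 150.9 and 167.5 CPM (NC) and 169.9, 158.7 and 167.9 CPM (PON1-OE). The groups overlapped, with a log2 fold change of 0.040 (SE 0.046; adjusted p = 0.821, edgeR quasi-likelihood test, Benjamini-Hochberg adjusted). *KEAP1* (chr19:10486120-10503741, minus strand), which encodes the adaptor that marks NRF2 for degradation, gave 14.5, 17.0 and 16.7 CPM (NC) and 13.5, 17.4 and 15.4 CPM (PON1-OE). Its lowest and its highest library both belonged to PON1-OE, and the log2 fold change was -0.063 (SE 0.11; adjusted p = 0.885 in the same edgeR fit). Per kilobase of transcript *NFE2L2* had 57.2 CPM and *KEAP1* 5.33 CPM, averaged over the 6 libraries, and no library of *KEAP1* came near the lowest of *NFE2L2*.

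The classic targets were abundant, and their groups overlapped. *NQO1*, a quinone reductase and the usual readout of NRF2 activity, gave 850.2, 839.7 and 890.8 CPM (NC) and 834.7, 924.2 and 856.7 CPM (PON1-OE), a log2 fold change of 0.019 (SE 0.038) with a 95% interval of -0.060 to 0.099. *HMOX1*, which encodes the enzyme that breaks down heme, gave 251.4, 257.8 and 243.7 CPM (NC) and 238.7, 291.0 and 258.2 CPM (PON1-OE). PON1-OE replicate 2 was the highest library and PON1-OE replicate 1 the lowest, and the log2 fold change was 0.065 (SE 0.052), or -0.014 without PON1-OE replicate 2. *OSGIN1*, an oxidative stress-induced growth inhibitor, had 118.5 ± 7.45 (NC) and 122.3 ± 7.49 CPM (PON1-OE, SD, n = 3 each). The adjusted p of all 3 genes was 0.705 or more (edgeR quasi-likelihood test, Benjamini-Hochberg adjusted).

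The aldo-keto reductases reduce reactive aldehydes and ketones, and the AKR1C enzymes also act on steroids and prostaglandins. The 3 AKR1C genes lie side by side on chromosome 10 and had lower fitted levels in PON1-OE. *AKR1C3* (chr10:5035354-5107686, plus strand) gave 467.8, 436.6 and 491.4 CPM (NC) and 408.7, 463.7 and 416.3 CPM (PON1-OE), a log2 fold change of -0.11 (SE 0.047; adjusted p = 0.358, edgeR quasi-likelihood test, Benjamini-Hochberg adjusted). *AKR1C2* gave 620.5, 550.1 and 662.4 CPM (NC) and 567.9, 595.5 and 542.3 CPM (PON1-OE) (log2 fold change -0.10, SE 0.050). *AKR1C1* gave 2345, 2079 and 2474 CPM (NC) and 2187, 2253 and 2031 CPM (PON1-OE) (log2 fold change -0.092, SE 0.047). Without NC replicate 2 the log2 fold change of *AKR1C2* was -0.17 and without NC replicate 3 -0.041, and that of *AKR1C3* ran from -0.17 without PON1-OE replicate 2 to -0.074 without NC replicate 3. In all 3 the lowest NC library was replicate 2 and the highest replicate 3, and the groups overlapped. These genes are near-identical copies, and their estimated counts were not whole numbers, so that reads shared among them may have been divided by the authors' counting. Summed over the 3 genes the libraries gave 3434, 3066 and 3628 CPM (NC) and 3164, 3312 and 2990 CPM (PON1-OE), a log2 fold change of -0.097 (SE 0.046; adjusted p = 0.443, edgeR quasi-likelihood test, Benjamini-Hochberg adjusted). *AKR1B10*, a reductase of retinal and lipid aldehydes that is often raised in HCC, had 1048 ± 85.4 CPM (SD, n = 3) in the controls and 1068 ± 66.7 CPM (SD, n = 3) with *PON1*, a log2 fold change of 0.028.

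Glutathione synthesis was the steadiest group. *GCLC*, the catalytic subunit of the rate-limiting glutamate-cysteine ligase, gave 85.9, 83.4 and 84.7 CPM (NC) and 84.6, 86.4 and 84.7 CPM (PON1-OE) (log2 fold change 0.0097, SE 0.047). *GCLM*, its modifier subunit, gave 178.6, 184.0 and 183.4 CPM (NC) and 177.0, 182.0 and 175.5 CPM (PON1-OE) (log2 fold change -0.031, SE 0.039). The 6 libraries of either gene lay within a few percent of one another and the groups overlapped. *GSS*, glutathione synthetase, had the smallest spread within groups of the 45 genes, 0.011 on the log2 scale beside a median of 0.062, with 138.1 ± 0.677 and 136.9 ± 1.32 CPM (NC) and PON1-OE. *GSR*, which returns oxidized glutathione to its reduced form, had 303.2 ± 8.19 and 302.5 ± 11.7 CPM (SD, n = 3 each). Of the transferases, *GSTP1*, a cytosolic enzyme that conjugates electrophiles to glutathione, gave 42.7, 43.1 and 44.5 CPM (NC) and 43.8, 52.3 and 47.0 CPM (PON1-OE) (log2 fold change 0.14, SE 0.068). PON1-OE replicate 1 fell among the NC values. *MGST1*, a membrane-bound transferase, had 723.8 ± 43.3 and 711.5 ± 4.18 CPM (SD, n = 3 each).

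The glutathione peroxidases differed among themselves. *GPX1* (chr3:49357171-49358600, minus strand), the cytosolic peroxidase of most tissues, gave 145.9, 155.5 and 155.7 CPM (NC) and 164.8, 173.9 and 166.2 CPM (PON1-OE). Every PON1-OE library lay above every NC library, with a log2 fold change of 0.14 (SE 0.043; adjusted p = 0.171, edgeR quasi-likelihood test, Benjamini-Hochberg adjusted). Its unadjusted p stayed under 0.05 in all 13 alternative settings of the fit, and its adjusted p ran from 0.101 to 0.564. *GPX2* (chr14:64939152-64942905, minus strand), an epithelial peroxidase of gut and liver whose promoter stretch with the core is printed above, gave 68.7, 55.6 and 75.2 CPM (NC) and 58.9, 61.9 and 49.5 CPM (PON1-OE). NC replicate 2 lay below 2 of the PON1-OE libraries. The log2 fold change was -0.22 (SE 0.088; adjusted p = 0.334, edgeR quasi-likelihood test, Benjamini-Hochberg adjusted). Without NC replicate 2 it was -0.34 and the adjusted p 0.0345, the 1 setting in which a gene of this set passed the threshold, where 0.738% of all genes passed. Without NC replicate 3 the log2 fold change was -0.13 and without PON1-OE replicate 3 -0.14, and over all settings the adjusted p ran from 0.0345 to 0.767. *GPX3*, the secreted plasma form, was among the least abundant of the set with 4.42, 3.59 and 4.46 CPM (NC) and 4.26, 4.88 and 6.0 CPM (PON1-OE) (log2 fold change 0.28, SE 0.18). Without PON1-OE replicate 3 its log2 fold change was 0.14, without NC replicate 2 it was 0.18 and without PON1-OE replicate 1 it was 0.39. *GPX4*, which reduces lipid hydroperoxides and guards against ferroptosis, had 549.4 ± 26.6 and 558.7 ± 27.4 CPM (SD, n = 3 each).

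**Figure D3:**
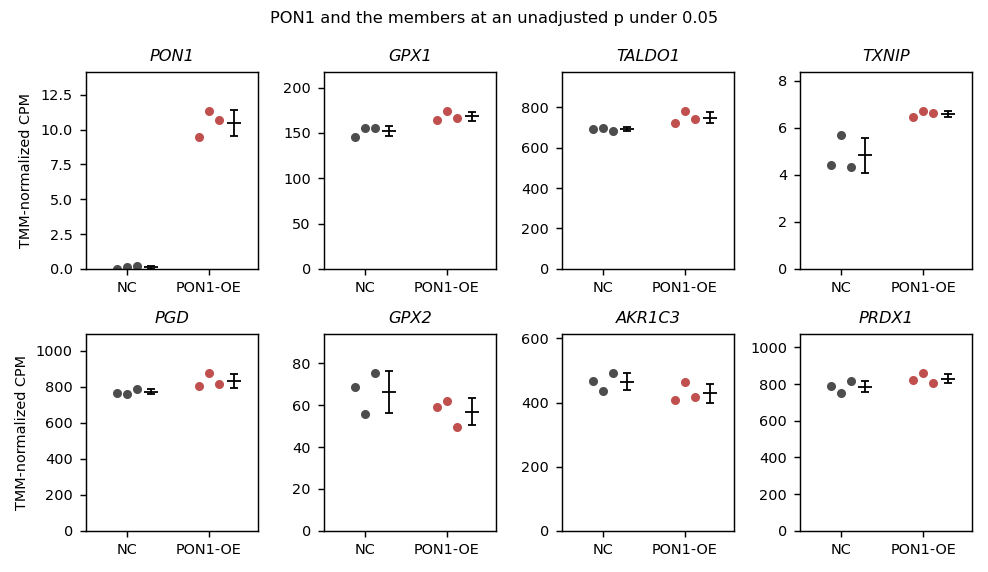
The plot of single libraries gives the TMM-normalized CPM on the vertical axis, from 0, for *PON1* and the 7 genes at an unadjusted p under 0.05, with 1 point per library, NC in grey and PON1-OE in red, and bars for the mean ± SD of 3 libraries. *PON1* rose from near 0 to 10.5 CPM, while *GPX1*, *TALDO1*, *TXNIP* and *PGD* show groups that do not overlap but lie close together, and *GPX2*, *AKR1C3* and *PRDX1* show groups that overlap.

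In the thioredoxin system, *TXNRD1* encodes the cytosolic reductase that keeps thioredoxin reduced at the expense of NADPH. It gave 4726, 4787 and 4739 CPM (NC) and 4603, 4775 and 4793 CPM (PON1-OE), a log2 fold change of -0.0083 (SE 0.028) with a 95% interval of -0.067 to 0.051. *SRXN1*, sulfiredoxin, which repairs overoxidized peroxiredoxins, gave 316.1, 349.1 and 323.2 CPM (NC) and 329.5, 357.6 and 365.4 CPM (PON1-OE) (log2 fold change 0.090, SE 0.044; adjusted p = 0.457, edgeR quasi-likelihood test, Benjamini-Hochberg adjusted). NC replicate 2 lay above PON1-OE replicate 1. *TXN*, thioredoxin itself, had 835.4 ± 22.3 and 845.5 ± 25.8 CPM, and its mitochondrial counterparts *TXN2* and *TXNRD2* had fitted log2 fold changes of -0.059 and 0.073. *TXNIP* (chr1:145992435-145996600, minus strand), which encodes the inhibitor that binds thioredoxin and also limits glucose uptake, had the largest fitted change of the 45 genes. It gave 4.42, 5.69 and 4.34 CPM (NC) and 6.45, 6.69 and 6.64 CPM (PON1-OE), and the groups did not overlap. The log2 fold change was 0.45 (SE 0.15; adjusted p = 0.243, edgeR quasi-likelihood test, Benjamini-Hochberg adjusted). Its adjusted p ran from 0.133 to 0.596 over the settings of the fit other than DESeq2, which gave none. With 1.95 CPM per kilobase it was the lowest of the 44 genes with a transcript length.

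The peroxiredoxins are the abundant peroxidases that thioredoxin reduces. *PRDX1*, the main cytosolic form and an NRF2 target, gave 790.5, 752.2 and 814.7 CPM (NC) and 823.1, 859.3 and 808.0 CPM (PON1-OE), with 1 NC library among the PON1-OE values. Its log2 fold change was 0.079 (SE 0.036; adjusted p = 0.425, edgeR quasi-likelihood test, Benjamini-Hochberg adjusted). The unadjusted p of *PRDX1* was over 0.05 without NC replicate 1, NC replicate 2 or PON1-OE replicate 2. *PRDX2*, *PRDX4*, *PRDX5* and *PRDX6* had fitted log2 fold changes of 0.044, 0.069, 0.050 and 0.041, and the mitochondrial *PRDX3* had -0.020. None of these 5 had an unadjusted p under 0.05 and the groups overlapped for each. The superoxide dismutases and catalase, which remove superoxide and hydrogen peroxide without NADPH, were as close. *SOD1* had 125.2 ± 3.04 and 128.2 ± 5.58 CPM, the mitochondrial *SOD2* 178.0 ± 11.4 and 179.1 ± 9.42 CPM, and *CAT* 29.6 ± 1.33 and 30.3 ± 2.2 CPM (SD, n = 3 each).

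NADPH supplies the reducing power of both systems. *TALDO1* (chr11:747329-765024, plus strand), transaldolase of the pentose phosphate pathway, gave 695.2, 700.1 and 684.2 CPM (NC) and 724.5, 780.8 and 744.7 CPM (PON1-OE). *PGD* (chr1:10398592-10420144, plus strand), the pathway's second NADPH-producing dehydrogenase, gave 767.5, 760.5 and 789.5 CPM (NC) and 803.8, 874.7 and 813.3 CPM (PON1-OE). For both genes every PON1-OE library lay above every NC library and PON1-OE replicate 2 was the highest. The log2 fold changes were 0.11 (SE 0.035; adjusted p = 0.176) for *TALDO1* and 0.10 (SE 0.036; adjusted p = 0.245) for *PGD* by edgeR quasi-likelihood test, Benjamini-Hochberg adjusted. Without any single library, PON1-OE replicate 2 included, the unadjusted p of both stayed under 0.05, and without PON1-OE replicate 2 the log2 fold change of *PGD* was 0.067. *TKT*, transketolase, which acts between the same sugars, had 959.3 ± 4.18 and 952.5 ± 48.1 CPM, and *ME1*, malic enzyme, had 57.6 ± 3.70 and 57.9 ± 2.08 CPM (SD, n = 3 each). Together the 4 transcripts took 0.247%, 0.250% and 0.250% of the counts in NC and 0.251%, 0.270% and 0.253% in PON1-OE.

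Iron storage gave the most abundant transcripts of the set. *FTL* and *FTH1*, the light and heavy chains of ferritin, gave 9094 ± 121 and 5257 ± 70.7 CPM (NC) and 8954 ± 249 and 5317 ± 173 CPM (PON1-OE) (SD, n = 3 each). Per kilobase *FTL* averaged 10278 CPM and *FTH1* 4302 CPM, followed by *TXNRD1* with 1205 CPM and *TXN* with 967.1 CPM, and the ranges of neighbors in this order over the 6 libraries did not overlap. *TFRC*, the transferrin receptor that brings iron into the cell, gave 626.9, 603.1 and 606.3 CPM (NC) and 582.9, 587.6 and 599.7 CPM (PON1-OE). All PON1-OE libraries lay below all NC libraries, yet the log2 fold change was -0.053 (SE 0.033; adjusted p = 0.602, edgeR quasi-likelihood test, Benjamini-Hochberg adjusted). *AIFM2*, also called FSP1, which protects membranes by reducing coenzyme Q, and *ACSL4*, which loads membranes with the lipids that ferroptosis oxidizes, had log2 fold changes of 0.058 and 0.0046.

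The paralogs of *PON1* had overlapping groups. *PON2*, an intracellular lactonase, gave 102.3, 99.9 and 104.0 CPM (NC) and 108.3, 101.9 and 105.8 CPM (PON1-OE) (log2 fold change 0.046, SE 0.046; adjusted p = 0.786, edgeR quasi-likelihood test, Benjamini-Hochberg adjusted). *PON3*, like PON1 a secreted enzyme of high-density lipoprotein, gave 3.94, 5.03 and 3.11 CPM (NC) and 3.65, 4.07 and 4.02 CPM (PON1-OE) (log2 fold change -0.045, SE 0.20). Its interval, -0.45 to 0.36, was the widest of the set, and so was its spread within groups, 0.25 on the log2 scale.

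The libraries of a group differed in a way that the 45 genes shared. PON1-OE replicate 2 was the highest PON1-OE library for 35 of the 45 genes (77.8%), beside 36.2% of all genes tested and 54.4% of the 1194 genes at or above the median level of the set. PON1-OE replicate 1 was the lowest for 24 of them (53.3%), beside 32.3% of all genes tested and 41.3% of those 1194 genes. In NC, replicate 3 was the highest for 23 genes (51.1%), beside 32.4% and 36.3%. Without PON1-OE replicate 2 the median log2 fold change of the 45 genes was -0.0080 in place of 0.019, and 4 genes were higher and 4 lower at an unadjusted p under 0.05, beside 6.79% and 6.11% of all genes in that fit. Summed, the 45 transcripts took 3.36%, 3.36% and 3.43% of the counts in the NC libraries and 3.29%, 3.44% and 3.33% in the PON1-OE libraries, so that the groups overlapped and PON1-OE replicate 2 was the highest of all 6.

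**Figure D4:**
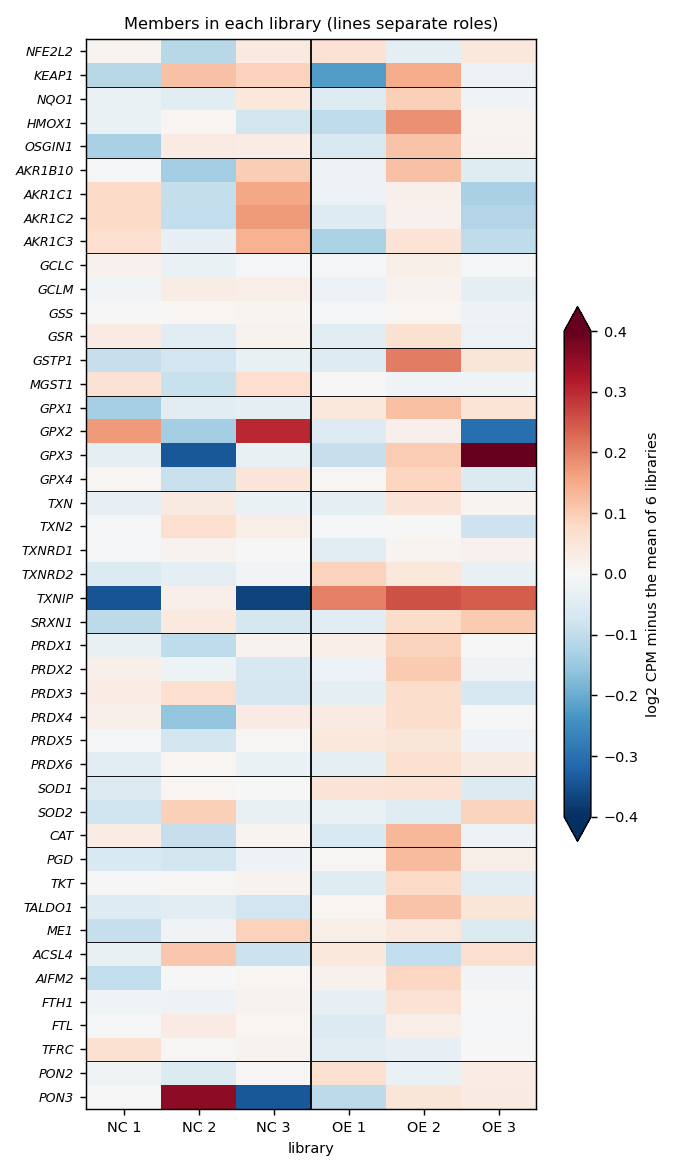
The map of the 45 genes by library shows for each gene the log2 CPM minus its mean over the 6 libraries, in blue below and red above the mean, with colors limited to 0.4 in either direction, a vertical line between NC and PON1-OE and horizontal lines between roles. The column of PON1-OE replicate 2 is mostly red, *GPX1* changes color at the vertical line, and the AKR1C genes and *GPX2* are reddest in NC replicate 3.

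Other genes of the same pathways were described from a longer list of 136 symbols, of which 135 were in the table and 115 were tested. None passed the adjusted threshold (edgeR quasi-likelihood test, Benjamini-Hochberg adjusted) or was called by limma-voom, while DESeq2 called 1, *UGDH* (log2 fold change -0.14; adjusted p = 0.0042), beside 1% of all genes. At an unadjusted p under 0.05 there were 16 (13.9%, beside 11.1% of all genes tested), 11 higher and 5 lower, and the median log2 fold change was 0.019. The 3 lower genes with the smallest p were *UGDH*, which makes UDP-glucuronic acid, the drug exporter *ABCG2* and the small heat shock gene *HSPB1*. *UGDH* came closest to the threshold, with 544.2 ± 13.6 (NC) and 492.2 ± 6.13 CPM (PON1-OE, SD, n = 3 each) and a log2 fold change of -0.14 (SE 0.034; adjusted p = 0.0518 by edgeR). *ABCG2* and *HSPB1* had log2 fold changes of -0.17 and -0.13. In the edgeR fit without PON1-OE replicate 2, 3 of these 115 genes passed, beside 0.852% of all genes in that fit. They were *UGDH* (adjusted p = 0.0329), *HSPB1* (adjusted p = 0.0384) and *SESN2* (log2 fold change 0.35; adjusted p = 0.0049). Without NC replicate 2 *UGDH* passed (adjusted p = 0.0348 by edgeR), beside 0.738% of all genes. The 3 higher genes with the smallest p were *SESN2*, a stress-induced sestrin, *ACO1*, the iron-sensing protein that controls ferritin and transferrin receptor mRNA, and *IDH1*, a cytosolic source of NADPH. Their log2 fold changes were 0.25, 0.16 and 0.11, with adjusted p of 0.140, 0.144 and 0.246 by edgeR.

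By role, the other glutathione genes had 6 of 25 higher and 0 lower at an unadjusted p under 0.05 in the edgeR fit, beside 5.91% higher and 5.17% lower over all genes tested. The other NRF2 targets had 1 of 26 higher and 3 lower, and the regulators of NRF2 had 1 of 17 higher. The other thioredoxin and repair genes had 2 of 22 higher. The other iron and ferroptosis genes had 1 of 22 higher and 2 lower. Of the oxidant sources, 3 were tested and none reached that p.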

How the data were processed

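The authors deposited one table of estimated counts per gene for the 6 libraries, without normalization, and 10.5% of the values were not whole. Per the labels, poly(A) RNA was made into libraries with a NEBNext Ultra kit and sequenced on an Illumina instrument. The submitters' processing notes name Bowtie2 2.2.8, HISAT2, StringTie 1.3.1 and DESeq2. The genome build, the annotation and the use of strand in counting are not given in the sources used here. Strand matters for *NFE2L2*, *TXNRD2*, *PRDX1*, *AIFM2* and *FTH1*, whose exons overlap a gene on the opposite strand, and *SRXN1* and *ACSL4* overlap one on the same strand.

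The estimated counts were rounded and tested in R 4.3.3 with edgeR 4.0.16 (filterByExpr, which kept 11958 genes, TMM, glmQLFit and glmQLFTest), PON1-OE against NC with no covariate and Benjamini-Hochberg adjustment over all genes tested. CPM are TMM-normalized. A floor of 3 counts was 0.166 to 0.192 CPM and covers counting error only. Intervals are at 95%. Replicates of a group differed by more than sampling noise. Coordinates of genes and the lengths of principal transcripts come from GENCODE v29 (GRCh38), which held 44 of the 45 identifiers, and *GPX1* is typed there as a polymorphic pseudogene. As alternatives, libraries were scaled by RLE size factors, the filter was dropped or set to 10 counts in each library, replicate numbers were used as a block, single libraries were omitted, DESeq2 1.42.0 or limma-voom 3.58.1 replaced edgeR, and GC content with length was taken out by splines. The fits were also run on simulated counts, drawn independently for each gene and library. Such counts lack the library deviations that the 45 genes shared, so these runs cannot check the intervals under them.

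Values in every library are given for the regulators and classic targets (*NFE2L2*, *KEAP1*, *NQO1*, *HMOX1*, *GCLC*, *GCLM*, *TXNRD1*, *SRXN1*), *PON2* and *PON3*, genes at an unadjusted p under 0.05, and the 3 largest and 3 smallest log2 fold changes. *AKR1C1*, *GSTP1* and *TFRC* were added after their values were seen. Of the other pathway genes, those past the adjusted threshold, or else the 3 with the smallest p in each direction, are named. The genes and lists were chosen with earlier results of these data known. One hepatocyte marker of the fixed list is not reported here.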

Additional observations from a re-analysis of the deposited data

How the results depend on the processing

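The precision is limited by 3 libraries per group, and the 5 genes whose groups did not overlap cannot go below an exact permutation p of 0.1. The number of all genes at an adjusted p under 0.05 was 81, and it was 177 with no filter on low counts, 40 with the replicate block and 11 to 103 when 1 library was left out (without NC replicate 1 it was 34, without NC replicate 3 it was 11, without PON1-OE replicate 1 it was 44, and leaving out PON1-OE replicate 3 gave 18). Of the 45 genes 0 were called, except for 1 (*GPX2*) without NC replicate 2, so the range over libraries left out was 0 to 1. At an unadjusted p under 0.05 there were 7 of the 45, beside 1325 of 11958 genes tested. With no filter there were 11, beside 1546 of 15542 genes. When 1 library was left out there were 4 to 9. The lowest was 4 without NC replicate 1, beside 991 of 12082 genes. There were 9 without NC replicate 2, beside 1375 of 12063 genes, and 9 without PON1-OE replicate 1, beside 1288 of 12090. Of the 45, those lower at that p numbered 0 without NC replicate 1, NC replicate 3 or PON1-OE replicate 3. The 16 other pathway genes at that p were 10 with DESeq2, beside 906 of 11958 genes tested. At the adjusted threshold, a count added after seeing the data, the other pathway genes had 0 called, but 2 (*UGDH* and *SESN2*) with no filter, 1 (*UGDH*) with DESeq2, 1 (*HSPB1*) with GC content and length taken out, and 0 to 3 when 1 library was left out. The median log2 fold change of the 45 genes ran from -0.0080 to 0.037 when 1 library was left out.

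Directions of single genes were followed over the settings only for those picked by the rule for values in every library, not for the rest of the 45. Those whose direction turned did so only when 1 library was left out. The log2 fold change then ran from -0.0043 to 0.071 for *NFE2L2*, -0.16 to 0.031 for *KEAP1*, -0.024 to 0.054 for *NQO1*, -0.014 to 0.13 for *HMOX1*, -0.0011 to 0.020 for *GCLC*, -0.019 to 0.014 for *TXNRD1* and -0.20 to 0.15 for *PON3*. The deviations of same-numbered libraries from their group means had correlations of 0.017, -0.023 and 0.020. With 3 libraries per group these values cannot show if the numbers pair libraries, and no label says so. With the replicate block the 45 genes had 0 at the adjusted and 7 at the unadjusted threshold. Of the 11958 genes tested in that fit, 40 and 1150 passed these thresholds. *SRXN1* (log2 fold change 0.090) was then under the unadjusted threshold in place of *PRDX1* (0.079).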
